A study of Rattus norvegicus with 9 samples.

Results

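The 34 genes described here copy DNA in S phase or prepare a cell for it. They encode the replicative helicase and its loaders, DNA polymerases, the sliding clamp, enzymes that supply deoxynucleotides, and regulators of entry into S phase. They were taken from a list of symbols with known roles in replication, drawn up with earlier results of these data known. All 34 were among the 17315 genes of the count tables, and all 34 passed the filter on low counts that left 10128 genes to test.

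RNA was sequenced from horizontal basal cells of SD rats. In the olfactory epithelium these are quiescent reserve stem cells. Here they were grown as a primary culture at passage 7, and the vehicle libraries carried transcripts of G2 and mitosis genes, given below. Vehicle cultures (0.1% DMSO) are labelled time 0, and the other cultures received 50 nM PMA (phorbol 12-myristate 13-acetate), which activates protein kinase C, for 6 h or for 12 h. Each of the 3 groups had 3 libraries, with 13601635 to 19001819 reads in genes per library. No vehicle library is labelled 6 h or 12 h, so PMA and time in culture cannot be told apart. The labels give no DMSO content for the PMA cultures, so a difference in solvent cannot be told apart either. Nothing in the labels ties replicates to separate cultures, so p-values measure the spread between these libraries, which may be technical.

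Replication starts in G1, when Cdc6 and Cdt1 load rings of the Mcm2 to Mcm7 proteins onto origins. Cyclin E with Cdk2, and the kinase Cdc7, then start S phase, when Cdc45 and the GINS complex join the ring to form the active helicase. Primase and polymerase alpha lay primers, polymerases delta and epsilon extend them on the Pcna clamp, and Fen1 and Lig1 join the fragments of the lagging strand. Many of these genes are known targets of E2F transcription factors, which the retinoblastoma family holds in check in cells at rest, and quiescent cells carry little of these transcripts.

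The promoters are shown for 8 members that cover the range of responses and of matches, chosen after both were seen. Ns5atp9 had no read at 6 h, and Mcm6, Mcm5 and Gins1 fell with a match in the window. Tk1 and Cdc45 had larger falls at 6 h than these 3 and no match, and Gins2 and Pcna were the members whose log2 fold changes at 6 h were nearest to 0. Each run covers the 150 bases before the start of transcription, from RefSeq annotation of the rat assembly GRCr8, written 5′ to 3′ on the strand of the gene. Capitals mark matches to 1 of 4 spellings of the E2F element (TTTCCCGC, TTTCGCGC, TTTGCCGC and TTTGGCGC) on either strand, and adjacent capitals can hold 2 overlapping matches on opposite strands.
Mcm6 (chr13:42404353-42404502, minus strand): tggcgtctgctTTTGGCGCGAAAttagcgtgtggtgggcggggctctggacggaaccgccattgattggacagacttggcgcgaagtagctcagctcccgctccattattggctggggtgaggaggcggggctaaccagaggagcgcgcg
Mcm5 (chr19:13488663-13488812, plus strand): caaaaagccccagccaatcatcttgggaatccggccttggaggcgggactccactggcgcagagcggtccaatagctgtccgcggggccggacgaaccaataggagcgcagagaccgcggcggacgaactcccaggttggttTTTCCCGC
Gins1 (chr3:160184770-160184919, plus strand): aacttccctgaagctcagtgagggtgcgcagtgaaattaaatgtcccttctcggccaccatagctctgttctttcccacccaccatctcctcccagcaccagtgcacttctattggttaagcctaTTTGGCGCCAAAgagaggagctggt
Ns5atp9 (chr8:75315567-75315716, plus strand): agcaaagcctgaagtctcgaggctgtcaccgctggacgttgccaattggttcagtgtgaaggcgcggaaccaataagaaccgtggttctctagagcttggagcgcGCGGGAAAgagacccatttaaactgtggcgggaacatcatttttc
Tk1 (chr10:103544778-103544927, minus strand): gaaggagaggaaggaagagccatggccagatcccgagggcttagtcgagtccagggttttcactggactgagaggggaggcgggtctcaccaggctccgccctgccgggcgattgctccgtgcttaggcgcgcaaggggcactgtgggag
Cdc45 (chr11:95690028-95690177, plus strand): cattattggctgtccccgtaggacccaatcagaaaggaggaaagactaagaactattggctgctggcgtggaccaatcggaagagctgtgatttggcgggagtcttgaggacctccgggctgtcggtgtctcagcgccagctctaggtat
Gins2 (chr19:65548053-65548202, minus strand): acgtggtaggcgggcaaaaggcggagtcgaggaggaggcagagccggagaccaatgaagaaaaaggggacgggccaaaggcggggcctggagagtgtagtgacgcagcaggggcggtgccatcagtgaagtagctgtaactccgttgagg
Pcna (chr3:139955821-139955970, minus strand): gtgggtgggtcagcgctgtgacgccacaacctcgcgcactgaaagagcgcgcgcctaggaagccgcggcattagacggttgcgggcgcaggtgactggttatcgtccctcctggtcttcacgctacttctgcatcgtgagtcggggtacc
The Mcm6 window holds overlapping matches at -139 and -135, and the Gins1 window at -25 and -21, counted from the start of transcription to the first base of the match. Mcm5 has a match at -8, whose last base is the base before the start, and Ns5atp9 has a match at -45. No match lies in the windows of Tk1, Cdc45, Gins2 and Pcna, which says only that these letters are not in these 150 bases.

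Promoters from 250 bases before to 50 bases after the start were found for 29 of the 34 members, Ns5atp9 by its other name Pclaf. Mcm4, Cdc6, Rrm2, Ccne2 and E2f1 had no entry. An E2F spelling was present for 15 of the 29 members (51.7%), namely Mcm2, Mcm3, Mcm5, Mcm6, Mcm7, Cdt1, Gins1, Pola1, Pole, Ns5atp9, Rfc3, Rpa2, Lig1, Tyms and Uhrf1. Among all tested genes with an entry it was present for 363 of 8286 (4.38%), and over the whole promoter table for 2.37%. With the spellings TTTCCCGC and TTTGGCGC alone, 12 of 29 members (41.4%) and 3.21% of the tested genes had a match. The letters CCAAT, on either strand, were present for 19 of 29 members (65.5%) and 38.7% of the tested genes. TTTGAA, a core of the CHR element of mitotic genes, was present for 1 member, Mcm2 (3.45%), and for 11.7% of the tested genes. Within the members, those with and without an E2F spelling had median log2 fold changes at 6 h of -3.61 (n = 15) and -3.58 (n = 14), and at 12 h of -4.27 and -3.76. Of the 14 without a spelling, Tk1, Cdc45, Cdca7l, Dctd and Prim1 had log2 fold changes of -6.18, -6.03, -5.95, -5.43 and -5.12 at 6 h. The same 14 held Gins2, Pcna and Fen1, at 0.51, -1.03 and -1.20. With a spelling, the members ran from Rpa2, at -1.51, to Ns5atp9, which had no read at 6 h. A match is a run of letters, not a site known to be bound.

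**Figure D1:**
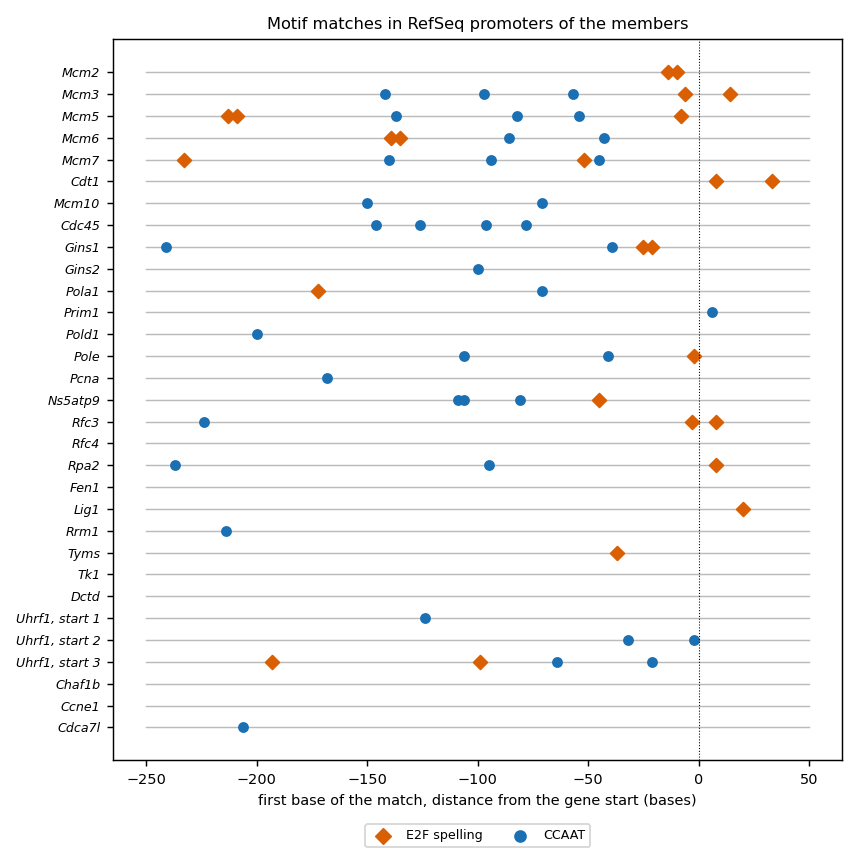
Matches to E2F spellings (diamonds) and CCAAT (circles), on either strand, in the promoters of the members that have an entry, by distance from the start of transcription in bases, with members in order of role and a line for each of 3 starts of Uhrf1. An E2F spelling occurs for 15 of the 29 members shown and CCAAT for 19.

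The cultures carried the defining transcripts of basal cells. All 8 markers of horizontal basal cells were present, with a summed level of 15741 to 18633 CPM in vehicle, where CPM is the count of a gene relative to the scaled library total, so that levels can be compared between libraries. Of these markers 7 fell at 6 h and Icam1 rose, and the sum was 2798 to 3485 CPM at 6 h and 4364 to 5047 CPM at 12 h. Krt5 was at 5922, 7510 and 7050 CPM in vehicle, at 423, 440 and 344 CPM at 6 h and at 416, 593 and 459 CPM at 12 h, so the members fell in cells in which a basal keratin fell too, and its part in the result was not tested. Markers of other cell types were mostly under 1 CPM in every group. Of the neuronal lineage, Neurog1, Gap43, Cnga2 and Dcx had no read in any library, and Neurod1, Omp and Lhx2 were under 1 CPM in each. Adcy3 was by far the highest of this lineage, at 205, 199 and 172 CPM in vehicle, 111, 109 and 104 CPM at 6 h and 183, 175 and 195 CPM at 12 h. Tubb3 was at 4.96, 6.88 and 6.90 CPM in vehicle, and both Adcy3 and Tubb3 were lower at 6 h (edgeR adjusted p = 3.7e-08 and 0.014). Ncam1 rose from 0.345, 0.258 and 0.159 CPM in vehicle to 1.22, 2.25 and 1.13 CPM at 12 h (edgeR adjusted p = 5.3e-04), and Gnal, at 1.21 to 1.80 CPM in vehicle, was not called at either time. A level under 1 CPM held for 4 of 7 sustentacular and gland markers (Cyp2g1, Ermn and Cyp1a2 without a read), 2 of 3 respiratory, 6 of 8 fibroblast and pericyte, 4 of 6 immune (Ptprc without a read) and 5 of 6 endothelial and glial markers. The summed sustentacular and gland level was 1207 to 1412 CPM in vehicle, 1954 to 2015 CPM at 6 h and 2189 to 2530 CPM at 12 h, and the immune sum was 26.2 to 28.9, 69.7 to 71.8 and 82.6 to 95.2 CPM. Both sums rest on the few markers of each list above 1 CPM, so they do not measure the share of a cell type. At 6 h 3 sustentacular and gland markers were called higher and 0 lower, and 1 immune marker higher and 1 lower. Among all tested genes 37.8% were higher and 39.0% lower. The part of these markers in the results below was not tested.

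After 6 h in PMA, 33 of the 34 members were lower than in vehicle and 1, Gins2, was higher. These calls are at an adjusted p under 0.05 in the quasi-likelihood test of edgeR, adjusted over 10128 genes by Benjamini-Hochberg. By the same rule 39.0% of all tested genes were lower and 37.8% higher. The median log2 fold change of the members was -3.50, against -0.03 over all genes tested, and 28 of the 34 fell more than 4-fold. Of all 10128 genes tested, 771 fell that far at 6 h. After 12 h, 33 members were lower than in vehicle and Gins2 was not called, where 38.2% of all tested genes were lower and 37.7% higher. The median of the members was then -3.87, against -0.02 over all genes, and 32 fell more than 4-fold, as did 713 of all 10128 genes tested. For each of the 33 members that fell, the highest PMA library was below the lowest vehicle library at 6 h and again at 12 h. The same separation held for 40.3% of all tested genes at 6 h and 40.0% at 12 h. Both comparisons use the same vehicle libraries. The 33 calls at each time were kept in all 17 alternative analyses, among them other library scalings, other tests and the removal of each library in turn. In whole-culture RNA, fewer cells in S phase and less of these transcripts per cell cannot be told apart.

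**Figure D2:**
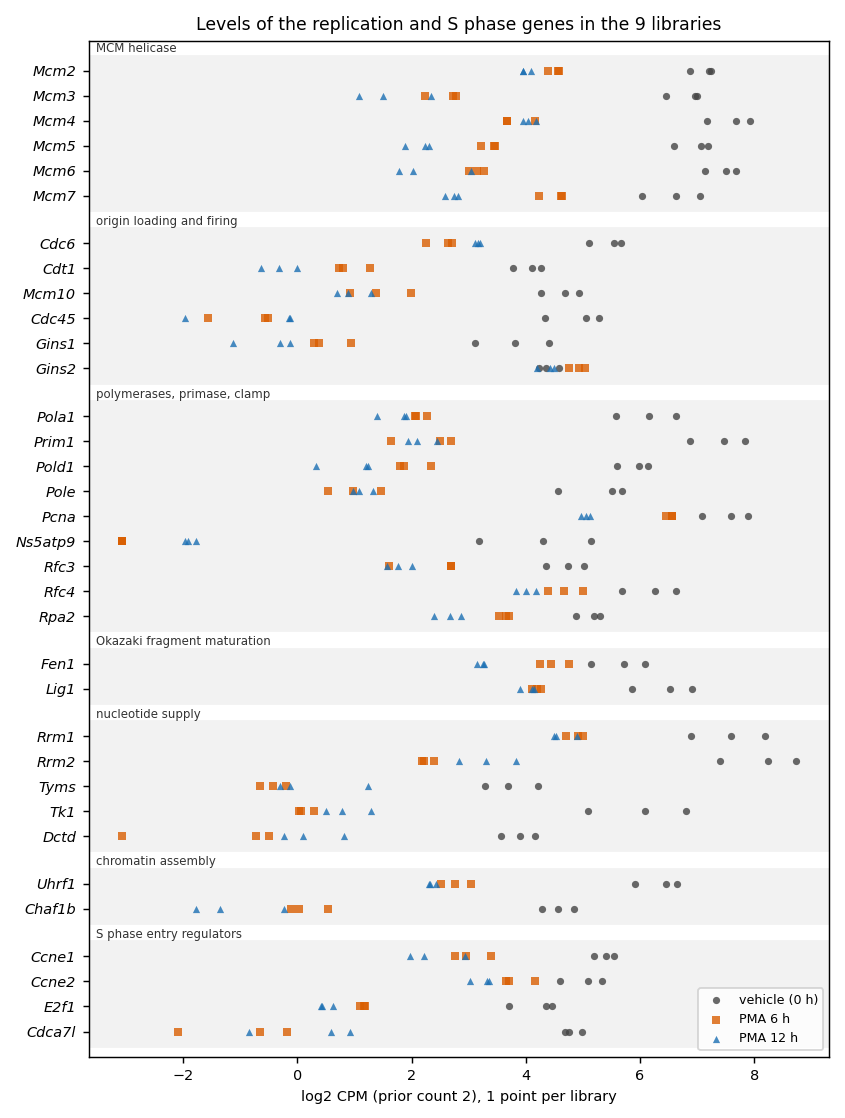
Level of each member in each of the 9 libraries, in log2 CPM (prior count 2), grouped by role, with a point per library and colours for vehicle, PMA 6 h and PMA 12 h. For every member except Gins2 the 3 vehicle points lie above all PMA points, and the lowest points, of Ns5atp9 and Dctd, are libraries without a read.

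The 6 subunits of the MCM helicase, which unwinds DNA ahead of the polymerases, all fell at both times. Their median log2 fold change was -3.69 at 6 h and -4.39 at 12 h. Mcm6 had the largest fall of the 6 at 6 h. It was at 140, 182 and 205 CPM in vehicle replicates 1, 2 and 3, at 9.55, 7.93 and 8.73 CPM at 6 h, and at 3.95, 8.13 and 3.29 CPM at 12 h. The vehicle libraries stood far above the PMA libraries, while 6 h and 12 h overlapped in replicate 2 of 12 h. The log2 fold change was -4.33 ± 0.26 (SE) at 6 h (edgeR adjusted p = 3.9e-07) and -5.08 ± 0.28 at 12 h (edgeR adjusted p = 2.2e-07). Here and below the SE is worked back from the F statistic of the edgeR test and is not an interval for the fold change. Mcm7, a subunit of the same ring, had the smallest fall at 6 h. Its levels were 65.2, 99.3 and 133 CPM in vehicle, 24.6, 24.4 and 18.7 CPM at 6 h, and 6.94, 6.54 and 5.90 CPM at 12 h. All 3 groups were apart, in 2 steps of similar size. For Mcm7 the log2 fold change was -2.13 ± 0.24 at 6 h (edgeR adjusted p = 2.7e-05) and -3.93 ± 0.28 at 12 h (edgeR adjusted p = 8.6e-07).

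Mcm2, which forms the gate of the ring with Mcm5, was at 117, 148 and 150 CPM in vehicle, at 23.4, 23.9 and 20.8 CPM at 6 h, and at 16.9, 15.3 and 15.3 CPM at 12 h. Its 3 groups did not overlap, and the step after 6 h was the smaller. Mcm5 had 96.8, 134 and 147 CPM in vehicle, 9.20, 10.8 and 10.9 CPM at 6 h, and 4.56, 4.79 and 3.55 CPM at 12 h. Here too the groups were apart, and the mean was 12.2-fold lower at 6 h and 29.2-fold lower at 12 h than in vehicle. Mcm4 went from 144, 205 and 243 CPM to 12.6, 12.6 and 17.8 CPM at 6 h and 16.3, 18.0 and 15.3 CPM at 12 h, so its 6 h and 12 h libraries overlapped. Mcm3 went from 87.9, 125 and 127 CPM to 4.57, 6.46 and 6.76 CPM at 6 h and 2.72, 4.94 and 1.99 CPM at 12 h, with an overlap of the PMA groups in replicate 2 of 12 h.

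Among the 6 genes of origin loading and firing, 5 fell at both times. Cdc45, the cofactor that joins MCM in the active helicase, had the largest fall. Its level was 20.0, 33.3 and 38.8 CPM in vehicle, 0.553, 0.220 and 0.578 CPM at 6 h, and 0.136, 0.799 and 0.780 CPM at 12 h. The vehicle libraries were all far above the PMA libraries, and both PMA groups overlapped. For Cdc45 the log2 fold change was -6.03 ± 0.40 at 6 h (edgeR adjusted p = 1.0e-08) and -5.77 ± 0.40 at 12 h (edgeR adjusted p = 1.6e-08), a 68.1-fold and a 53.7-fold lower mean.

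Gins2 was the exception among the 34. It encodes a subunit of the 4-part GINS complex. Its level was 18.7, 23.9 and 20.3 CPM in vehicle, 32.8, 30.3 and 26.8 CPM at 6 h, and 22.3, 18.2 and 21.2 CPM at 12 h. The 6 h libraries were above all others, and the 12 h libraries lay among the vehicle libraries. The log2 fold change was 0.51 ± 0.13 at 6 h (edgeR adjusted p = 0.0016) and -0.02 ± 0.13 at 12 h (edgeR adjusted p = 0.87). The rise at 6 h depends on how libraries are scaled. It was not called with upper-quartile scaling, and without scaling the log2 fold change was -0.023. At 12 h Gins2 was called lower than vehicle without scaling, and was not called in any other alternative. On GRCr8 the gene overlaps Gse1, which was not analysed here, and the counts used do not part reads by strand.

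Gins1, another subunit of GINS, moved the other way. It was at 8.50, 14.0 and 21.0 CPM in vehicle, at 1.18, 1.10 and 1.79 CPM at 6 h, and at 0.340, 0.799 and 0.694 CPM at 12 h. All 3 groups were apart, and the log2 fold change was -3.39 ± 0.34 at 6 h (edgeR adjusted p = 1.4e-07) and -4.57 ± 0.40 at 12 h (edgeR adjusted p = 2.2e-08). A ratio of reads within a library does not depend on the scaling between libraries, though it also reflects gene length. Reads of Gins2 per read of Gins1 were 2.20, 1.71 and 0.967 in vehicle, 27.9, 27.5 and 14.9 at 6 h, and 65.6, 22.8 and 30.6 at 12 h. The vehicle ratios lay below every PMA ratio, so these subunits changed unequally. This pair, like the other pairs of genes given below as ratios, was chosen after their values were seen, and an exact permutation test of 3 against 3 libraries cannot go below p = 0.1.

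The loaders of the helicase were lower at both times but differed in their course. Cdc6 was at 34.3, 46.5 and 50.4 CPM in vehicle, at 4.64, 6.10 and 6.42 CPM at 6 h, and at 8.85, 9.01 and 8.50 CPM at 12 h. Every 12 h library was above every 6 h library and below every vehicle library. Its log2 fold change was -2.93 ± 0.17 at 6 h (edgeR adjusted p = 4.0e-11) and -2.31 ± 0.16 at 12 h (edgeR adjusted p = 6.8e-10). Cdt1, which works beside Cdc6, was at 13.5, 17.1 and 19.2 CPM in vehicle, at 2.28, 1.54 and 1.62 CPM at 6 h, and at 0.680, 0.872 and 0.520 CPM at 12 h. It fell in both steps, with no overlap between any groups, to a log2 fold change of -3.19 ± 0.24 at 6 h (edgeR adjusted p = 1.3e-09) and -4.56 ± 0.28 at 12 h (edgeR adjusted p = 9.2e-11). Mcm10, a scaffold for firing of the helicase, went from 19.2, 25.7 and 30.5 CPM to 3.87, 1.76 and 2.49 CPM at 6 h and 1.5, 2.32 and 1.73 CPM at 12 h.

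The 9 genes for polymerases, primase, clamp and single-strand binding all fell at both times, with a median log2 fold change of -3.95 at 6 h and -4.27 at 12 h. Ns5atp9, the rat symbol of the Pcna-binding factor Pclaf, stood apart. It was at 8.89, 19.5 and 35.2 CPM in vehicle, from 1322 reads, had no read in any 6 h library, and was at 0.136, 0.145 and 0.173 CPM at 12 h. With 3 counts over the 6 h libraries taken as the floor, Ns5atp9 was at least 320-fold lower at 6 h. That bound was 215-fold without vehicle replicate 3, and 198-fold to 413-fold over the removal of each library. At 12 h it was 140-fold lower, with a log2 fold change of -7.07 ± 0.83 (edgeR adjusted p = 2.4e-04). Floors cover counting error only. Trip4, which overlaps it on GRCr8, had a mean of 30.2 CPM in vehicle, 32.3 CPM at 6 h and 23.4 CPM at 12 h.

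Prim1, the catalytic subunit of primase, was at 118, 178 and 229 CPM in vehicle, at 5.53, 3.01 and 6.30 CPM at 6 h, and at 4.15, 5.30 and 3.73 CPM at 12 h. Both PMA groups lay far below vehicle and overlapped each other, with a log2 fold change of -5.12 ± 0.33 at 6 h (edgeR adjusted p = 1.7e-06) and -5.31 ± 0.35 at 12 h (edgeR adjusted p = 1.7e-06). The catalytic subunits of the 3 replicative polymerases had close falls at 6 h. Pola1, of polymerase alpha, went from 48.0, 71.6 and 98.8 CPM to 4.70, 4.04 and 4.10 CPM at 6 h and 3.54, 3.63 and 2.51 CPM at 12 h. Pold1, of polymerase delta, went from 48.3, 63.3 and 70.5 CPM to 4.91, 3.53 and 3.35 CPM at 6 h and 2.25, 2.18 and 1.13 CPM at 12 h. Pole, of polymerase epsilon, went from 23.7, 45.6 and 51.3 CPM to 2.63, 1.32 and 1.85 CPM at 6 h and 1.84, 2.40 and 1.99 CPM at 12 h. The log2 fold changes of Pola1, Pold1 and Pole at 6 h were -4.08, -3.95 and -4.37, and between 6 h and 12 h Pold1 was called lower while Pola1, lower in all 3 libraries at 12 h, and Pole were not called.

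Pcna, the sliding clamp that also serves in DNA repair, had the smallest fall of these 9 at 6 h. It was at 135, 192 and 236 CPM in vehicle, at 94.4, 87.1 and 94.1 CPM at 6 h, and at 34.7, 33.2 and 31.0 CPM at 12 h. The groups formed 3 separate levels, with a further log2 fold change of -1.48 after 6 h. The log2 fold change was -1.03 ± 0.16 at 6 h (edgeR adjusted p = 1.9e-04) and -2.51 ± 0.18 at 12 h (edgeR adjusted p = 2.9e-07). Reads of Pcna per read of Pold1 were 2.80, 3.04 and 3.35 in vehicle, 19.2, 24.7 and 28.1 at 6 h, and 15.5, 15.2 and 27.5 at 12 h. The clamp and the polymerase that it holds thus changed unequally in every PMA library.

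The clamp loader and the single-strand binding protein had log2 fold changes of -2.34 (Rfc3), -1.53 (Rfc4) and -1.51 (Rpa2) at 6 h. Rfc4, a clamp loader subunit, was at 51.4, 76.7 and 98.5 CPM in vehicle, at 20.9, 25.3 and 32.1 CPM at 6 h, and at 15.9, 14.2 and 18.0 CPM at 12 h, which set all 3 groups apart. Rfc3, of the same loader, went from 20.2, 26.5 and 32.4 CPM to 2.91, 6.32 and 6.30 CPM at 6 h and 2.86, 3.27 and 3.90 CPM at 12 h. Rpa2, which coats single-stranded DNA, was at 29.2, 36.7 and 39.0 CPM in vehicle, at 12.9, 11.4 and 12.4 CPM at 6 h, and at 6.26, 7.19 and 5.12 CPM at 12 h. For Rpa2 all 3 groups were apart, and for Rfc3 the PMA groups overlapped.

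Both genes for the maturation of Okazaki fragments fell. Fen1, the flap endonuclease, was at 35.3, 52.6 and 67.4 CPM in vehicle, at 27.0, 21.6 and 19.0 CPM at 6 h, and at 9.53, 8.72 and 9.36 CPM at 12 h. The groups were apart, and the drop continued after 6 h, from a log2 fold change of -1.20 ± 0.21 at 6 h (edgeR adjusted p = 1.8e-04) to -2.49 ± 0.22 at 12 h (edgeR adjusted p = 6.2e-07). Lig1, the ligase that seals the fragments, was at 57.9, 92.3 and 121 CPM in vehicle, at 17.2, 18.2 and 19.1 CPM at 6 h, and at 17.6, 14.7 and 17.1 CPM at 12 h. Its PMA groups overlapped, and the log2 fold change was -2.31 ± 0.24 at 6 h (edgeR adjusted p = 1.2e-05) and -2.45 ± 0.24 at 12 h (edgeR adjusted p = 9.0e-06). On GRCr8 Fen1 overlaps Tmem258 and Lig1 overlaps Zswim9, neither of which was analysed here.

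The 5 genes of nucleotide supply had a median log2 fold change of -5.43 at 6 h and -3.76 at 12 h. Tk1, the thymidine kinase of cycling cells, had the largest fall of the 5 at 6 h. It was at 33.8, 67.5 and 111 CPM in vehicle, at 0.899, 1.10 and 0.925 CPM at 6 h, and at 2.31, 1.60 and 1.30 CPM at 12 h. All 12 h libraries were above all 6 h libraries, though far below vehicle, and the log2 fold change was -6.18 ± 0.58 at 6 h (edgeR adjusted p = 3.1e-05) and -5.32 ± 0.54 at 12 h (edgeR adjusted p = 5.2e-05). Rrm2, the small subunit of ribonucleotide reductase, was at 169, 301 and 423 CPM in vehicle, at 5.12, 4.55 and 4.39 CPM at 6 h, and at 9.73, 14.2 and 7.02 CPM at 12 h. The 3 groups did not overlap, with a log2 fold change of -5.99 ± 0.46 at 6 h (edgeR adjusted p = 1.5e-05) and -4.84 ± 0.42 at 12 h (edgeR adjusted p = 3.2e-05).

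Rrm1, the large subunit of the same enzyme, had the smallest fall of the 5 at 6 h. It was at 119, 194 and 292 CPM in vehicle, at 30.0, 26.1 and 31.7 CPM at 6 h, and at 29.8, 23.0 and 22.4 CPM at 12 h. Its PMA groups overlapped, and the log2 fold change was -2.78 ± 0.34 at 6 h (edgeR adjusted p = 1.8e-04) and -3.0 ± 0.34 at 12 h (edgeR adjusted p = 1.3e-04). Reads of Rrm2 per read of Rrm1 were 1.42, 1.55 and 1.45 in vehicle, 0.171, 0.175 and 0.138 at 6 h, and 0.326, 0.615 and 0.314 at 12 h. In every PMA library the small subunit was thus lower relative to the large subunit than in any vehicle library. This was most so at 6 h.

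Tyms, thymidylate synthase, went from 9.58, 12.7 and 18.3 CPM to 0.623, 0.514 and 0.752 CPM at 6 h and 2.25, 0.799 and 0.694 CPM at 12 h. Replicate 1 of 12 h was the highest PMA library, and without it the log2 fold change at 12 h was -4.16 in place of -3.39. Dctd, which makes the substrate of thymidylate synthase, was at 11.7, 14.9 and 17.7 CPM in vehicle, at 0.484 and 0.588 CPM in replicates 1 and 2 of 6 h with no read in replicate 3, and at 0.953, 0.726 and 1.65 CPM at 12 h. All 12 h libraries lay above the 6 h libraries. The log2 fold change of Dctd at 6 h was -5.43 ± 0.47 (edgeR adjusted p = 5.6e-08), or -4.78 without replicate 3 of 6 h.

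Chromatin is copied with the DNA, and both members of that role fell. Chaf1b, a subunit of the histone chaperone CAF-1, was at 19.3, 23.5 and 28.5 CPM in vehicle, at 0.899, 0.808 and 1.33 CPM at 6 h, and at 0.272, 0.726 and 0.173 CPM at 12 h. The groups were apart, and the log2 fold change was -4.52 ± 0.28 at 6 h (edgeR adjusted p = 1.0e-10) and -5.87 ± 0.33 at 12 h (edgeR adjusted p = 3.0e-11), or -6.65 at 12 h without replicate 2 of 12 h. Uhrf1, which binds hemimethylated DNA and brings the maintenance methyltransferase Dnmt1, was at 60.3, 87.5 and 100 CPM in vehicle, at 6.64, 8.15 and 5.61 CPM at 6 h, and at 4.83, 5.23 and 4.86 CPM at 12 h. Its groups were apart as well, with a log2 fold change of -3.61 ± 0.19 at 6 h (edgeR adjusted p = 1.0e-10) and -4.05 ± 0.20 at 12 h (edgeR adjusted p = 5.2e-11).

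Of the 4 regulators of entry into S phase, Cdca7l, a Myc-binding nuclear protein, had the largest fall at 6 h. It was at 26.8, 25.5 and 31.4 CPM in vehicle, at 0.761, 0.514 and 0.116 CPM at 6 h, and at 1.77, 1.38 and 0.434 CPM at 12 h. Replicate 3 was the lowest library in both PMA groups, which overlapped. The log2 fold change was -5.95 ± 0.38 at 6 h (edgeR adjusted p = 1.9e-09), or -6.53 without replicate 1 of 6 h, and -4.49 ± 0.33 at 12 h (edgeR adjusted p = 1.1e-08). Ccne2, a cyclin E, had the smallest fall, from 24.0, 33.8 and 40.1 CPM in vehicle to 12.5, 13.0 and 17.8 CPM at 6 h and 9.87, 10.2 and 7.98 CPM at 12 h. The groups were apart, with a log2 fold change of -1.17 ± 0.18 at 6 h (edgeR adjusted p = 2.5e-05) and -1.80 ± 0.19 at 12 h (edgeR adjusted p = 3.2e-07). Ccne1, the other cyclin E, went from 36.7, 42.1 and 46.5 CPM to 10.3, 7.64 and 6.65 CPM at 6 h and 3.81, 7.55 and 4.51 CPM at 12 h. E2f1, an activating E2F factor and itself an E2F target, went from 13.0, 22.0 and 20.2 CPM to 2.01, 2.13 and 2.14 CPM at 6 h and 1.43, 1.23 and 1.21 CPM at 12 h. On GRCr8 Ccne2 overlaps Ints8 and Cdca7l overlaps Dnah11, which were not analysed here.

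**Figure D3:**
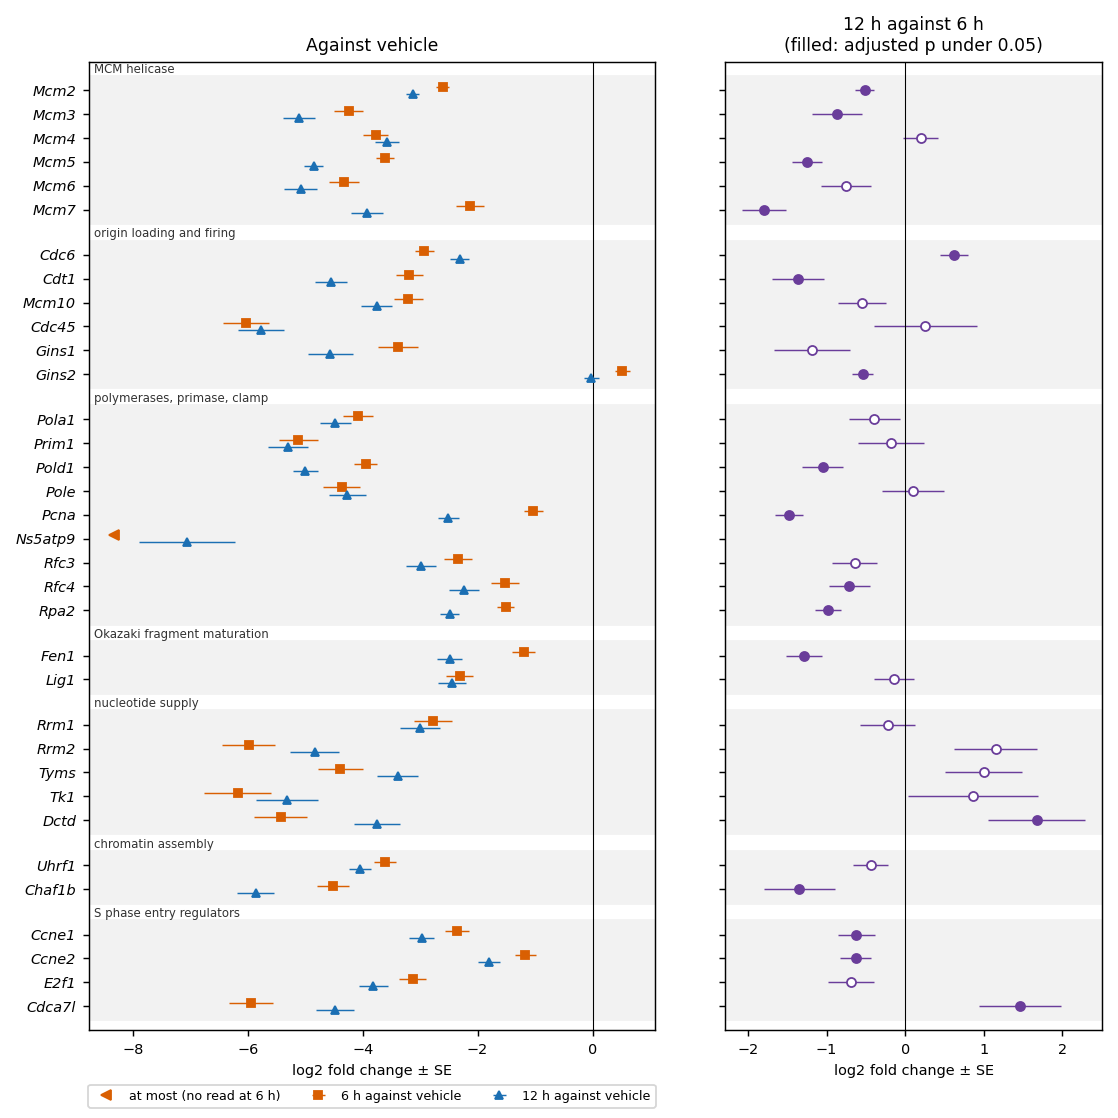
Log2 fold change ± SE of each member at 6 h and 12 h against vehicle (left) and at 12 h against 6 h (right, filled where the edgeR adjusted p is under 0.05), in order of role. Only Gins2 lies above 0 at 6 h (at -0.023 without scaling of libraries); the arrowhead of Ns5atp9 is the bound from a floor of 3 counts, and Ns5atp9, without a read at 6 h, is left out on the right.

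Between 6 h and 12 h, 14 members fell further, 3 rose and 17 were not called, with a median log2 fold change of -0.54 against 0.01 over all genes tested. By the same edgeR rule 25.8% of all tested genes fell and 25.3% rose in this step. The 14 were Mcm2, Mcm3, Mcm5, Mcm7, Cdt1, Gins2, Pold1, Pcna, Rfc4, Rpa2, Fen1, Chaf1b, Ccne1 and Ccne2, and for all but Gins2 the step added to a fall at 6 h. Mcm7, Pcna, Cdt1 and Chaf1b had the largest falls in this step, with log2 fold changes of -1.80 ± 0.28, -1.48 ± 0.18, -1.37 ± 0.33 and -1.35 ± 0.45. Their edgeR adjusted p-values were 6.3e-04, 5.6e-05, 0.0022 and 0.019. Chaf1b was at -2.13 without replicate 2 of 12 h. Reads of Mcm7 per read of Mcm6 were 0.465, 0.546 and 0.649 in vehicle, 2.58, 3.07 and 2.15 at 6 h, and 1.76, 0.804 and 1.79 at 12 h. The 6 h ratios were above all others and the 12 h ratios lay between, so these helicase subunits fell along different courses.

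The 3 members that rose from 6 h to 12 h were Dctd, by 1.68 ± 0.62 on the log2 scale (edgeR adjusted p = 0.035), Cdca7l, by 1.46 ± 0.52 (edgeR adjusted p = 0.031), and Cdc6, by 0.62 ± 0.18 (edgeR adjusted p = 0.0081). All 3 were still below every vehicle library at 12 h. The rise of Dctd was 1.01 without replicate 3 of 6 h, and that of Cdca7l was 2.05 without replicate 1 of 6 h. Ns5atp9 went from no read at 6 h to 2 reads in each 12 h library and was not called (edgeR adjusted p = 0.31). Rrm2, Tyms and Tk1 had positive values of 1.15 ± 0.52, 1.00 ± 0.49 and 0.86 ± 0.83 that did not pass (edgeR adjusted p = 0.11, 0.099 and 0.43), and Tyms was at 0.24 without replicate 1 of 12 h. A value that did not pass does not show that a gene stayed level.

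Calls in the step from 6 h to 12 h depended more on the analysis than the calls against vehicle. Of the 17 members called, 8 were called in all 17 alternative analyses, and all 8 fell (Mcm2, Mcm5, Mcm7, Cdt1, Gins2, Pcna, Rpa2 and Fen1). With limma-voom in place of edgeR, 8 members fell and 0 rose in this step. Over the removal of each library in turn, 9 to 18 members fell and 1 to 5 rose. Combining the 3 comparisons, 13 members fell in both steps, 17 fell by 6 h with no call afterwards, and 4 (Cdc6, Gins2, Dctd and Cdca7l) moved back after 6 h. Over all genes tested these courses, in either direction, made up 13.4%, 32.0% and 28.0%.

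The vehicle libraries differed among themselves in these genes. Replicate 1 was the lowest vehicle library for 33 of the 34 members, replicate 3 the highest for 32, and both held for 31 (91.2%), against 25.6% of all genes tested. The median ratio of replicate 3 to replicate 1 was 1.67 for the members and 1.01 for all genes. Members as a share of the reads in genes made up 0.245%, 0.351% and 0.437% in vehicle replicates 1, 2 and 3, 0.0329% to 0.0358% at 6 h and 0.0191% to 0.0221% at 12 h. The lowest vehicle share was thus well above the highest share after PMA. The 20 measured genes of G2 and mitosis followed the same order of vehicle libraries in 20 of 20 cases, with a median ratio of 4.17. Their mean log2 CPM was 3.84, 4.89 and 5.82 in vehicle replicates 1, 2 and 3, 1.18 to 1.30 at 6 h and 0.57 to 0.91 at 12 h, and its part in the members' spread was not tested. Within 6 h and within 12 h such an order was seen for 8 and 2 of the 34 members, and for 17.8% and 12.9% of all genes tested.

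**Figure D4:**
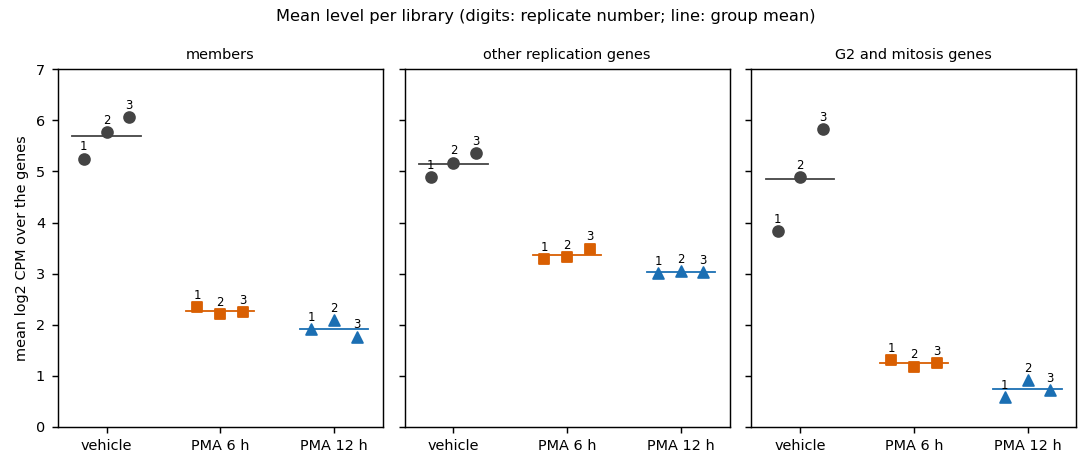
Mean log2 CPM (prior count 2) in each library of the 34 members, of 58 other replication genes and of 20 genes of G2 and mitosis. The members' mean is 5.25, 5.78 and 6.06 in vehicle replicates 1, 2 and 3, and between 1.77 and 2.34 in the 6 PMA libraries.

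Most other genes of the same pathways were lower too, with a median nearer to 0. Of 64 further replication genes listed by role, 58 were in the tables and all 58 were tested. At 6 h 46 fell, 5 rose and 7 were not called, with a median log2 fold change of -1.36, and at 12 h 51 fell, 3 rose and 4 were not called, with a median of -1.87. Beside these counts and those of each list below, 39.0% of all tested genes were lower and 37.8% higher at 6 h. At 12 h the shares were 38.2% and 37.7%. Of 16 other genes of origin licensing and firing, 10 fell and 2 rose at 6 h. Orc1, the subunit of the origin recognition complex that cycles, was at 23.9, 26.1 and 27.9 CPM in vehicle and at 0.208, 0.441 and 0.925 CPM at 6 h, a log2 fold change of -5.55 ± 0.31 (edgeR adjusted p = 2.6e-11). Mcm8 and Cdc7 followed at -3.94 and -2.47. Without replicate 3 of 6 h, Orc1 was at -6.32 and Mcm8 at -4.86. Orc4, a subunit of the same origin complex, rose at 6 h by 0.90 ± 0.13 on the log2 scale (edgeR adjusted p = 7.5e-06), and Mcmbp by 0.30 ± 0.08 (edgeR adjusted p = 0.0016), though at -0.23 without scaling of libraries. Orc4 was at -0.13 ± 0.14 and not called at 12 h (edgeR adjusted p = 0.39).

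Of 22 other fork, polymerase and clamp loader genes, 18 fell and 2 rose at 6 h, with a median of -1.76. Top2a, the topoisomerase of cycling cells, was at 68.2, 154 and 296 CPM in vehicle and at 0.208, 0.881 and 1.10 CPM at 6 h, a log2 fold change of -7.84 ± 0.85 (edgeR adjusted p = 1.3e-04), or -7.20 without vehicle replicate 3. Dscc1, a subunit of an alternative clamp loader, and Pole2, the second subunit of polymerase epsilon, had log2 fold changes of -7.61 and -6.39, or -8.77 and -7.92 without replicate 3 of 6 h. Top1, a topoisomerase that cuts a single strand, was at 120, 114 and 124 CPM in vehicle, at 686, 699 and 681 CPM at 6 h and at 641, 600 and 585 CPM at 12 h, a log2 fold change of 2.53 ± 0.07 at 6 h (edgeR adjusted p = 5.2e-15). Top1 and Top2a thus went in opposite directions. Pole4, a small subunit of polymerase epsilon, rose by 0.43 ± 0.10 at 6 h (edgeR adjusted p = 6.0e-04), though it was at -0.11 without scaling of libraries.

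Of 11 other genes of nucleotide supply, 10 fell and 0 rose at 6 h, with a median of -1.34. At 12 h 9 were lower than in vehicle, with a median of -1.35. Ctps1 was then higher, at 0.69 (edgeR adjusted p = 9.7e-06), and Rrm2b, at -1.34 at 6 h, was not called, at 0.15. The falls at 6 h were largest for Dut, which removes dUTP, at -4.10 ± 0.33 (edgeR adjusted p = 9.5e-08), and for Cad and Umps of pyrimidine synthesis, at -2.35 and -1.93. Of 9 other chromatin assembly genes, 8 fell and 1, the histone-binding protein Rbbp4, rose at 6 h by 0.28 ± 0.12 (edgeR adjusted p = 0.043), or -0.25 without scaling of libraries. The median of the 9 was -0.70. Asf1b, a histone chaperone of cycling cells, was at 16.2, 29.8 and 47.4 CPM in vehicle and had no read in replicate 1 of 6 h and 0.147 and 0.116 CPM in the others. Cdca7 and Dnmt1 had log2 fold changes of -3.52 and -3.03. All 20 genes of G2 and mitosis fell at 6 h, with a median of -3.96, among them Cenpf, Bub1b and Mki67 at -6.77, -5.71 and -5.34. Without vehicle replicate 3 Cenpf was at -5.88 and Bub1b at -5.07, and without replicate 3 of 6 h Cenpf was at -7.63.

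**Figure D5:**
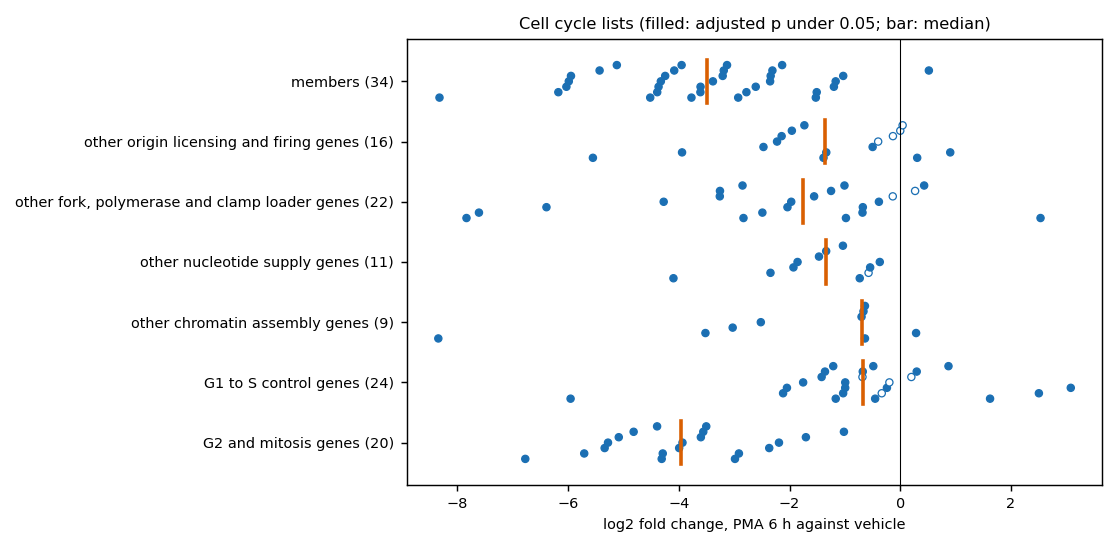
Log2 fold change at 6 h against vehicle of the members and of the genes of each other list, with a point per gene, filled where the edgeR adjusted p is under 0.05, and a bar at the median; Ns5atp9 is drawn at its bound. The medians are -3.50 for the members, between -0.68 and -1.76 for the lists that are not of G2 and mitosis, and -3.96 for G2 and mitosis.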

How the data were processed

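RNA-seq libraries of 3 groups with 3 replicates each were compared. Per the submitters' processing notes, the authors aligned reads to rn6 with STAR 2.7.5b, and the deposited tables hold counts per gene in an unstranded and 2 stranded columns. The unstranded counts were used. No source used here gives the annotation behind them. A deposited table of DESeq2 values was not used. The 4 summary lines per table were left out, and reads in genes were 67.8% to 71.3% of all reads. Ambiguous and multimapping reads are not in the gene counts, so near-identical copies and overlapping genes can lose reads. Multimapping reads were 7.74% in replicate 3 of 12 h and 5.95% to 6.35% in the other libraries.

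In R 4.3.3, edgeR 4.0.16 kept genes by filterByExpr (minimum count 10), scaled totals by TMM (factors 1.28 to 1.31 in vehicle, 0.848 to 0.911 after PMA) and fitted a robust quasi-likelihood model to all 9 libraries with group as the only term. Calls are at a Benjamini-Hochberg adjusted p under 0.05 over 10128 genes. Each SE is the size of the log2 fold change divided by the square root of the F statistic of its test. It was not estimated apart from that test. Means and ratios are of CPM on scaled totals, and log2 CPM used a prior count of 2. The common dispersion gave a biological coefficient of variation of 11.2%. The fits were tested on simulated data. The alternatives were upper-quartile scaling, no scaling, RLE size factors, no filter, DESeq2 1.42.0, limma-voom (limma 3.58.1), fits of the groups compared alone, a replicate block and the removal of each library.

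The members and lists were chosen with earlier results of these data known, so no p over a list is given. Values per library are given at least for the largest and smallest change at 6 h of each role, for members that rose or did not pass, and for the largest changes after 6 h. Of other lists, up to 3 genes that fell and 3 that rose most at 6 h are named. Promoters and gene overlaps come from RefSeq tables of GRCr8, which is not the build of the counts, and served for letters and neighbours only. For genes with several starts, a match at any start counts. Neuronal lineage markers are given by gene, and their summary as a list is not reported here.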

Additional observations from a re-analysis of the deposited data

Results flagged for a closer look

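For 17 of the 34 members the effect at 12 h differed from the effect at 6 h by a test of the difference itself. This was edgeR's quasi-likelihood test of 12 h against 6 h with Benjamini-Hochberg adjustment. The same test called 5175 of all 10128 genes tested, so the number of calls does not set the members apart. The size of the difference between 12 h and 6 h does not use the levels in vehicle. Its test, though, shares an estimate of the spread with the vehicle libraries. Without vehicle replicate 1, 2 or 3, the calls of 6, 2 and 4 members changed in this step. With the PMA groups fitted alone, 6 changed. The log2 difference was -1.80 for Mcm7, -1.48 for Pcna, -1.37 for Cdt1, -1.35 for Chaf1b, -1.29 for Fen1, -1.25 for Mcm5, -1.05 for Pold1 and -0.98 for Rpa2. It was -0.87 for Mcm3, -0.71 for Rfc4, -0.63 for Ccne2, -0.62 for Ccne1, -0.54 for Gins2 and -0.52 for Mcm2. It was positive, at 1.68, 1.46 and 0.62, for Dctd, Cdca7l and Cdc6. Of these calls, those of Cdc6 and Pold1 were lost only with limma-voom, and those of Mcm3, Rfc4, Dctd, Chaf1b, Ccne1, Ccne2 and Cdca7l under 3 or more of the 17 alternatives. Groups of 3 libraries are too small for a check for outlying libraries.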

How the results depend on the processing

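The 33 falls at 6 h and the 33 at 12 h were called under all 17 alternatives. Without scaling of libraries, the median over all genes tested shifted by -0.54 at 6 h and -0.58 at 12 h, and the members' median was -4.03 and -4.45. With upper-quartile scaling the shifts were -0.26 and -0.27. Of all called genes, 49.3% were higher at 6 h in the analysis as reported, 38.5% with upper-quartile scaling and 28.0% without scaling, and at 12 h 49.7%, 38.0% and 26.0%. The rise of Gins2 at 6 h, the only rise among the members, was not called with either, which left 0 members higher, and without scaling its value was -0.0227. Without scaling Gins2 was also called lower at 12 h. Without scaling Mcmbp, Pole4 and Rbbp4, higher at 6 h as reported, were at -0.233, -0.108 and -0.253. In the step from 6 h to 12 h, limma-voom called 8 members lower and 0 higher. This gave 7 members that fell in both steps, 26 that fell by 6 h with no call afterwards and 1 that moved back. Removal of each library in turn gave 9 to 18 members lower and 1 to 5 higher in that step. It gave 8 to 17 that fell in both steps, 11 to 23 that fell by 6 h with no call afterwards and 2 to 6 that moved back. The members' median then ran from -3.72 to -3.26 at 6 h, from -4.09 to -3.70 at 12 h and from -0.56 to -0.46 for 12 h against 6 h. Mean log2 CPM of the members at 6 h was 2.23, 2.09 and 2.07 with a prior count of 0.5. With the replicate number as a block, all genes called at 6 h came to 3765 higher and 3885 lower, no call of a member against vehicle changed, and for 12 h against 6 h Gins1, Ns5atp9 and Rfc3 were gained and Dctd was lost. Deviations of same-numbered libraries correlated at -0.115 to 0.027, so the numbers were not taken to pair the libraries. Members at 1 to 3 reads per library after PMA, such as Ns5atp9, carry a fold set by few reads.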

Other observations

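Genes that control the step from G1 to S moved in both directions. Of 24 such genes in the tables, 15 were lower, 5 higher and 4 not called at 6 h, with a median log2 fold change of -0.68. Of all tested genes 39.0% were lower and 37.8% higher. The inhibitors of cyclin-dependent kinases Cdkn1c, Cdkn2b and Cdkn1a had the largest rises. Of the other such inhibitors measured, Cdkn1b rose at 6 h (log2 fold change 0.87) and Cdkn2c was not called. Cdkn2a was lower at 6 h, at -0.45 (edgeR adjusted p = 6.3e-04), and higher at 12 h, at 0.90. Cdkn1c was at 10.1, 7.35 and 8.55 CPM in vehicle, at 78.0, 75.8 and 66.5 CPM at 6 h and at 97.6, 59.8 and 102 CPM at 12 h, a log2 fold change of 3.08 ± 0.21 at 6 h (edgeR adjusted p = 1.1e-07). Cdkn2b went from 26.9, 33.3 and 33.2 CPM to 176, 191 and 163 CPM at 6 h and 281, 301 and 293 CPM at 12 h. Cdkn1a went from 422, 485 and 519 CPM to 1594, 1498 and 1294 CPM at 6 h and 1268, 1256 and 1470 CPM at 12 h. Every PMA library was above every vehicle library for Cdkn1c, Cdkn2b and Cdkn1a. Of all 10128 genes tested, 3914 had every 6 h library above every vehicle library, and 3916 every 12 h library. The largest falls were those of Ccna2, the cyclin of S phase and G2, Skp2, which marks Cdkn1b for degradation, and E2f7, a repressive E2F factor. Ccna2 went from 23.0, 52.3 and 89.9 CPM to 1.04, 0.441 and 1.10 CPM at 6 h, a log2 fold change of -5.96 ± 0.77 (edgeR adjusted p = 2.7e-04), and Skp2 and E2f7 were at -2.12 and -2.05.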
